A study of Mus musculus with 24 samples.

Results

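The 9 lipid-associated macrophage marker genes Gpnmb, Trem2, Cd9, Spp1, Lpl, Fabp5, Cd63, Itgax and Mmp12 were followed in whole-liver RNA of mice on a high-fat diet or its control diet. They are 9 of the 56205 genes of the count table, found by their symbols, and they were chosen by name from earlier results of the diet comparison in these same 24 libraries. Their difference between the diets is therefore given as a description, with its size and error and without a test. RNA of 8 of the 9 genes was higher on the high-fat diet, from 2.31-fold for Cd9 to 45-fold for Gpnmb, and RNA of Fabp5 was lower.

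The mice were C57BL/6J of both sexes, 8 to 10 weeks old at the start, and were kept for 20 weeks on the high-fat diet (FFD in the labels) or on the control diet, which the labels also call chow. The age comes from the study's methods. No allele or other agent was named for either group, so the diet is the only labelled difference. Each diet had 12 libraries of poly(A) RNA from whole liver, numbered 1 to 12, and the series' design gives 6 mice per diet and sex, which is as many mice as libraries. The labels do not give the sex of a library, and p-values measure the spread between these libraries.

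Libraries held 14468418 to 22112552 counts on genes. In each diet, libraries 1 to 6 had 2664 to 6285 counts of Xist, the RNA that silences an X chromosome, and 0 counts of the Y-linked gene Ddx3y, whereas libraries 7 to 12 had 0 to 3 counts of Xist and 448 to 1016 of Ddx3y. These sets of 6 are called the Xist-high and Xist-low libraries below, with 1000 Xist counts as the border, and diet comparisons are also given within each set. The replicate number and any handling tied to it cannot be told apart from the set. Of the individual libraries, 4 stood apart in the 9 genes. Control libraries 6 and 11 were high in most of them, high-fat library 3 was low in some and high in others, and high-fat library 9 was high in Spp1 and Cd9 together with bile duct markers. For the 9 genes, the main results that rest on these libraries are given with and without them. Calls of single genes in the other lists are given with all libraries.

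Lipid-associated macrophages are macrophages that gather in obese adipose tissue, in fatty liver and in other tissues where lipid and dying cells have to be cleared. They take up lipid through surface receptors such as TREM2, which signals through the adaptor TYROBP and the kinase SYK, and they carry a programme of lysosomal, lipid-binding and matrix-degrading proteins. In the liver they lie near lipid-laden hepatocytes and fibrotic septa and are thought to come largely from monocytes, in contrast to the resident Kupffer cells. None of the 9 genes is made by these cells alone: bile duct cells make osteopontin, adipocytes and muscle make lipoprotein lipase, and many cell types make CD9 and CD63.

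Levels are given as counts per 1000000 counts of a TMM-scaled library (CPM), and fold changes as the high-fat minus control difference on the log2 scale with its standard error (SE) from edgeR. A gene was called when its Benjamini-Hochberg adjusted p was at most 0.01 and its log2 fold change was over 0.5 in size. At that threshold 2372 of the 17913 tested genes, or 13.2%, were called higher on the high-fat diet and 894, or 4.99%, lower. With scaling by library totals these were 3827 and 226, and the calls of the 9 genes were 8 higher and 1 lower under either scaling. All 9 genes passed the filter on low counts, and 8 were called higher and 1 lower. Since this contrast chose the genes, nothing is read from that count. In whole tissue, fewer cells of a type and less RNA per cell cannot be told apart.

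**Figure D1:**
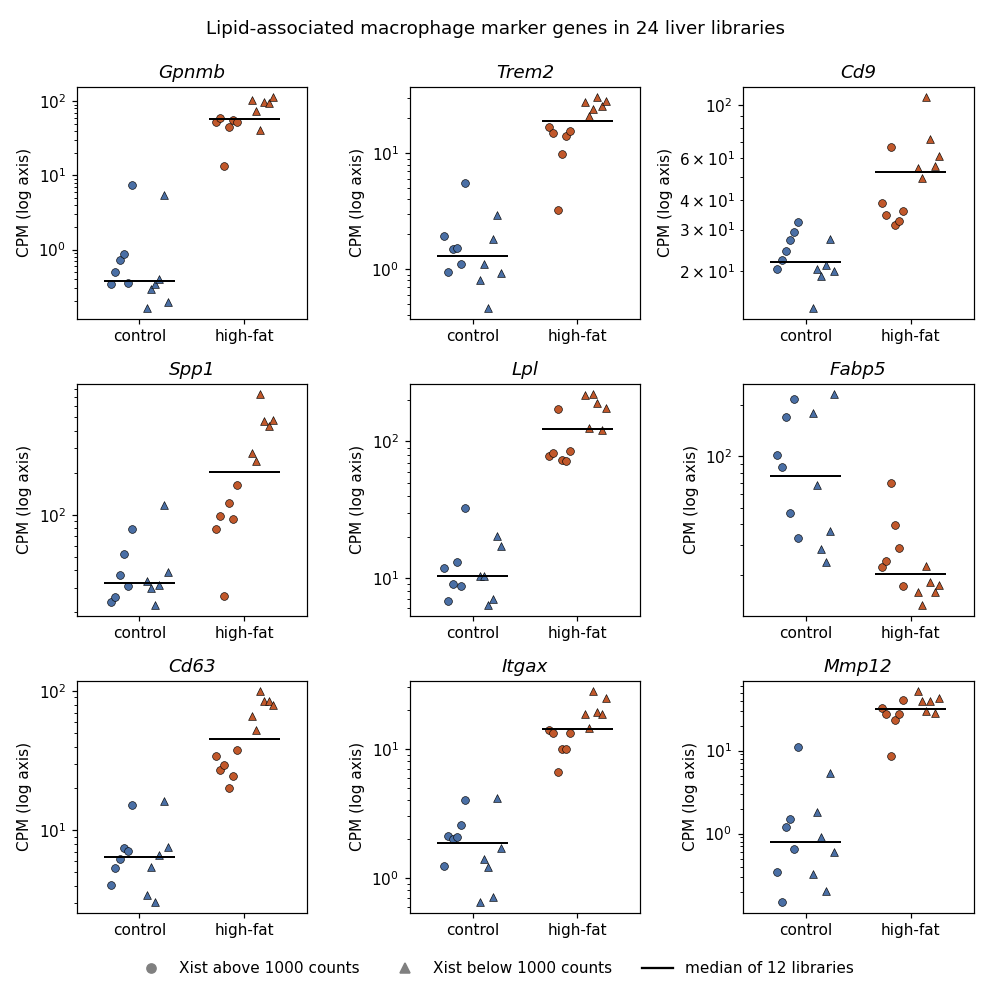
CPM of each of the 9 genes (log axis) in the 12 control and 12 high-fat libraries. Circles are Xist-high and triangles Xist-low libraries, and the line is the median of the diet. The diets are separate for Gpnmb, Lpl, Cd63 and Itgax, and Fabp5 is the one gene with the lower median on the high-fat diet.

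Gpnmb (ENSMUSG00000029816, chr6:49036546-49070929, plus strand, in the mm10 build that is also called GRCm38) encodes a transmembrane glycoprotein of lysosome-rich cells. On the control diet its lowest library had 0.162 CPM, the median was 0.38 and the highest, library 6, had 7.34. On the high-fat diet the values ran from 13.3 in library 3 through a median of 57.2 to 113 in library 12. Every high-fat library lay above every control library. The log2 fold change was 5.49 (SE 0.55, n = 12 per diet), with means of 66.7 and 1.42 CPM. Control libraries 6 and 11 had 159 and 97 counts of Gpnmb while the other 10 had 3 to 16, and without these 2 libraries the log2 fold change was 7.27.

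Trem2 (ENSMUSG00000023992, chr17:48346401-48354147, plus strand) encodes the lipid-sensing receptor itself. Control libraries had 0.461 to 5.58 CPM with a median of 1.3, and high-fat libraries had 3.25 to 30.5 with a median of 18.9. Of the 12 high-fat libraries, 11 lay above all control libraries, and the exception was library 3 with 61 counts. The log2 fold change was 3.47 (SE 0.35), and 4.0 without control libraries 6 and 11.

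Itgax (ENSMUSG00000030789, chr7:128129547-128150657, plus strand) encodes CD11c, an integrin chain of dendritic cells and recruited macrophages. Control libraries had 0.649 to 4.19 CPM (median 1.86) and high-fat libraries 6.61 to 28.0 (median 14.3). The diets did not overlap. The log2 fold change was 2.98 (SE 0.27), and its alternatives of scaling, filter, test, replicate block or set term gave 2.91 to 3.28.

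The 150 bases before the RefSeq start of 4 of these genes are shown for the short motifs of macrophage transcription factors that lie in them. RefSeq windows of the GRCm38.p6 build, 250 bases before and 50 after the start, were found for 7 of the 9 genes. Capitals mark a match to the AP-1 letters TGANTCA, the PU.1 letters GAGGAAGT or the C/EBP letters TTGCNNAA on either strand. The windows are chr17:48346251-48346400, chr7:128129400-128129549, chr5:104434961-104435110 and chr9:7344247-7344396, all on the plus strand, where the last base precedes the start.
Trem2: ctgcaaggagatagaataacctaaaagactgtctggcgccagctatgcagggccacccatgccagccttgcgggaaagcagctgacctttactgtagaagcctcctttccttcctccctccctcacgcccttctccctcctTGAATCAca
Itgax: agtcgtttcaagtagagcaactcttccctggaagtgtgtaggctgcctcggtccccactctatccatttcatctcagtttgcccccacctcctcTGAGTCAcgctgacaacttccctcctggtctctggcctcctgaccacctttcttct
Spp1: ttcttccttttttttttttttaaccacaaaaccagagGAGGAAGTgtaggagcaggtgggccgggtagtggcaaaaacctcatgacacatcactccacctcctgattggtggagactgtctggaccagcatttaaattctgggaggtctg
Mmp12: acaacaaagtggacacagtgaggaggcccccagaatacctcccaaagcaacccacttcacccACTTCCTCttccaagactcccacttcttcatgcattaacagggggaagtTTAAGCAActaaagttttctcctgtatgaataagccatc
An AP-1 match began 9 bases before the start of Trem2 and 56 bases before that of Itgax. The PU.1 letters began 113 bases before the start of Spp1 and, on the other strand, 88 bases before that of Mmp12, which also held a C/EBP match 39 bases before its start. Over the 300-base windows, AP-1 letters were found in 3 of the 7 genes (the third was Gpnmb, 9 bases into the gene) and in 7.81% of 32851 RefSeq windows, PU.1 letters in 2 of 7 and in 3.2%, and C/EBP letters in 2 of 7 and in 10.8%. The E-box CACGTG and the M-box TCATGTG, letters bound by the MITF and TFE factors, were in 0 of 7, and in 7.15% and 3.77% of all windows. A match is a run of letters and says nothing of binding.

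Of the secreted proteins, Spp1 (ENSMUSG00000029304, chr5:104435118-104441050, plus strand) encodes osteopontin, a matrix cytokine that binds integrins and CD44. Control libraries had 22.5 to 117 CPM with a median of 32.6, and high-fat libraries 26.3 to 729 with a median of 203. The groups overlapped: 8 of 12 high-fat libraries lay above all control libraries, high-fat library 3 was the lowest of its diet, and control library 11 was the highest of its own. The log2 fold change was 2.62 (SE 0.42) and lay between 2.38 and 2.86 when single libraries were left out.

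Mmp12 (ENSMUSG00000049723, chr9:7344381-7369499, plus strand) encodes macrophage elastase, a metalloproteinase. Control libraries had 0.149 to 11 CPM (median 0.783) and high-fat libraries 8.69 to 51.9 (median 31.6). The groups overlapped in high-fat library 3, which lay below control library 6 alone. That control library had 239 counts of Mmp12 where the control median was 13.5. The log2 fold change was 3.98 (SE 0.50), and 5.38 without control libraries 6 and 11.

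Lpl and Fabp5, the lipid-handling members, differed in direction. Lpl (ENSMUSG00000015568, chr8:68880491-68907448, plus strand) encodes lipoprotein lipase, which releases fatty acids from circulating triglyceride. Control libraries had 6.33 to 32.5 CPM (median 10.3) and high-fat libraries 71.8 to 221 (median 124). The diets did not overlap, and the log2 fold change was 3.39 (SE 0.28). Fabp5 (ENSMUSG00000027533, chr3:10012548-10016607, plus strand) encodes a fatty acid-binding protein of macrophages and epithelia. Its control libraries ranged widely, from 23.9 to 232 CPM with a median of 77, and its high-fat libraries had 13.3 to 69.7 with a median of 20.2. On the high-fat diet 8 of 12 libraries lay below all control libraries, and the log2 fold change was -2.01 (SE 0.38). High-fat library 3 had the highest Fabp5 of its diet, and the log2 fold change was -2.25 without it. Fabp5 was thus lower, against the other 8 genes, under each of the 7 alternatives run on all 24 libraries (-2.08 to -1.73).

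The tetraspanins Cd9 and Cd63 are membrane organizers of cell surface and lysosome. Cd9 (ENSMUSG00000030342, chr6:125460266-125494791, minus strand) had 14 to 32.3 CPM in control libraries (median 21.8) and 31.3 to 108 in high-fat libraries (median 52.2). Its log2 fold change of 1.21 (SE 0.18) was the smallest among the 9, and 11 of 12 high-fat libraries lay above all control libraries. Cd63 (ENSMUSG00000025351, chr10:128900989-128912822, plus strand) had 3.05 to 16.3 CPM in control libraries (median 6.43) and 20.2 to 99.7 in high-fat libraries (median 45.2). The diets did not overlap, and the log2 fold change was 2.87 (SE 0.31). The pseudogene Cd63-ps had at most 2 counts in any library, and Cd9-ps and Fabp5l2 had 0, so reads credited to these copies were few.

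In all, 4 of the 9 genes (Gpnmb, Lpl, Cd63 and Itgax) had no overlap between the diets, where 1.48% of the tested genes lay wholly higher on the high-fat diet. Compared per length of exon, the mean levels on the high-fat diet ran from Spp1 (162 CPM per kb, SD 131) through Cd9 (26.2), Cd63 (14.5), Lpl (12.8), Gpnmb (10.2), Fabp5 (7.13), Mmp12 (4.54) and Trem2 (3.92) to Itgax (3.32). The ranges of every pair of neighbours in that order overlapped. On the control diet Fabp5 (28.6 CPM per kb) and Spp1 (26.4) came first, Cd9 (11.3) next, and Gpnmb (0.218) last. Cd9 and Cd63 (1.99) were the only neighbours there whose ranges did not overlap. Gpnmb thus moved from the last place to the fifth, and Fabp5 from the first to the sixth.

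A ratio within a library needs no scaling, and Cd68, a lysosomal protein of all macrophages, served as the denominator. Cd68 is itself one of the other lipid-associated macrophage genes below and was called higher (log2 fold change 1.84, SE 0.23). A lower ratio is therefore not by itself a lower level, and Cd9 RNA was higher on the high-fat diet (1.21, SE 0.18). The ratio of Gpnmb to Cd68 counts was 0.0324 to 0.511 in control libraries (median 0.0671) and 0.682 to 3.58 in high-fat libraries (median 2.32). The control and high-fat medians were 0.195 and 0.673 for Trem2, 0.133 and 1.19 for Mmp12, 1.6 and 4.23 for Lpl, 0.813 and 1.55 for Cd63, 0.223 and 0.509 for Itgax, and 5.01 and 6.39 for Spp1. They were 2.78 and 1.6 for Cd9 and 10.3 and 0.687 for Fabp5. Per count of Cd68, then, 7 genes had the higher median on the high-fat diet and Cd9 and Fabp5 the lower, and the ranges of the diets overlapped for every gene except Gpnmb.

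The other genes of the programme come from lists of textbook members. Since the 9 genes were chosen on this contrast, their sizes are not weighed against these lists. Of 20 other lipid-associated macrophage genes, 11 were called higher, 0 lower and 9 were not called, with a median log2 fold change of 0.85, against -0.03 for all tested genes. Lgals3, the galectin of phagocytes, rose most in that list (log2 fold change 2.85, SE 0.28, adjusted p = 1.65e-07), followed by the actin-capping protein gene Capg (2.51, SE 0.25, adjusted p = 1.89e-07). Fabp4 rose by a log2 fold change of 1.97 (SE 0.34, adjusted p = 6.29e-05). Lysosomal genes were mixed. Cd68 (1.84, adjusted p = 2.13e-06), Atp6v0d2 (1.88, adjusted p = 0.000144), Ctss (1.69, adjusted p = 3.27e-06), Lgmn (1.25, adjusted p = 1.41e-06) and Ctsb (0.54, adjusted p = 7.26e-05) rose. Lipa (0.30, adjusted p = 0.0105), Grn (0.07, adjusted p = 0.577), Ctsd (0.46), Ctsl (-0.13), Ctsz (0.19) and Npc2 (0.04) were not called. The lipid droplet gene Plin2 was not called either (0.01, adjusted p = 0.97).

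Of the 11 genes of TREM2 signalling and shedding, 8 were called higher, with a list median of 1.44. Tyrobp, the adaptor of TREM2, rose by a log2 fold change of 1.52 (SE 0.24, adjusted p = 3.07e-05), and Syk by 1.46 (SE 0.20, adjusted p = 4.91e-06). The sheddases Adam10 (0.16) and Adam17 (0.30) and the ligand gene Apoe (0.18) were not called. Trem2 itself, chosen on this contrast, stood at 3.47. Among its relatives of the TREM family, Treml2 (2.01, adjusted p = 0.000556) and Treml4 (1.22, adjusted p = 2.59e-05) rose, and Trem1 had at most 3 counts and was not tested.

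The receptors and partners of the secreted and lipid-handling members were mixed. Among all tested genes 13.2% were called higher and 4.99% lower. Of 9 osteopontin receptor genes 4 were called higher, led by Cd44 (1.53, SE 0.22, adjusted p = 8.95e-06), and Itgav had a log2 fold change of -0.40. Among 10 lipoprotein lipase partners 1 was higher, the activator Apoc2 (0.67, adjusted p = 0.00794), and 3 were lower, the inhibitor Apoc3 (-0.82, adjusted p = 0.0031), Apoa5 (-0.87, adjusted p = 6.95e-06) and hepatic lipase Lipc (-0.71, adjusted p = 0.00201). With library totals 2 of these partners were called higher and 1 lower, and leaving out single libraries gave 0 to 1 higher. Of 14 transcription factors tied to lipid-laden macrophages 2 were called higher, near the share of all tested genes, and the list median was 0.06. They were Spi1, which encodes PU.1 (1.45, SE 0.23, adjusted p = 3.18e-05), and Pparg (1.31, SE 0.21, adjusted p = 3.18e-05). Mitf (0.31), Tfeb (-0.02) and Nr1h3 (-0.33), the gene of LXR alpha, were not called.

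Within their own families the members did not all stand with their relatives. Of 14 other tetraspanins 6 were called higher and 1 lower: Tspan8, an epithelial tetraspanin, rose by 3.01 (SE 0.51), Cd53 by 1.62 (SE 0.24), and Tspan33 fell by 1.03 on the log2 scale, while Cd81 (0.28) and Cd82 (0.08) were not called. Among the fatty acid-binding proteins Fabp3 was called higher, with at most 1 count in any control library and 0 to 49 counts in the high-fat libraries, Fabp7 rose by 0.84 (adjusted p = 0.00515), and liver Fabp1 fell by 0.73 on the log2 scale (adjusted p = 2.77e-05). The partner chain of Itgax, Itgb2, rose by 1.72 (SE 0.23), and its relative Itgam by 1.65 (SE 0.26). Mmp13 (3.04, SE 0.53) and Timp1, an inhibitor of metalloproteinases (3.62, SE 0.48), rose as well, and Mmp19 did not pass the test (-0.03).

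**Figure D2:**
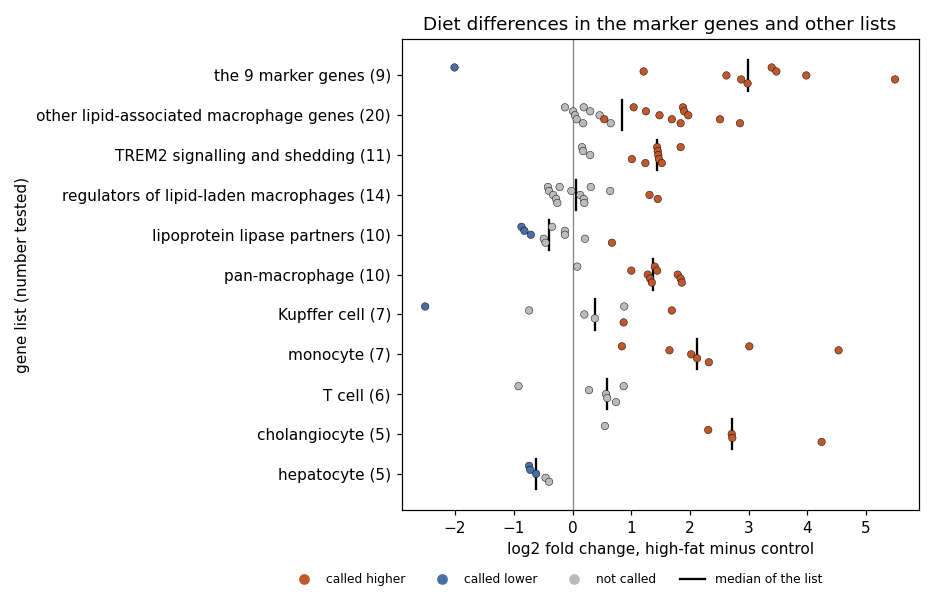
Log2 fold change by diet for each tested gene of 11 lists. Colours give the call and the black line the median of the list. The median was 1.38 for the pan-macrophage, 2.12 for the monocyte, 0.38 for the Kupffer cell and 2.71 for the cholangiocyte list. The 9 genes, with a median of 2.98, were chosen on this contrast, so nothing is read from their place among the lists.

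Markers of the cell types in the tissue moved as well, and their part in the values above was not tested. Of 10 pan-macrophage markers 9 were called higher, and Mertk (0.08) was not. Their summed level was 170 to 668 CPM on the control and 687 to 1549 on the high-fat diet. All 7 monocyte markers were called higher, with Cx3cr1 at a log2 fold change of 3.01 (SE 0.40). Kupffer cell markers were mixed: Cd5l (1.69) and Folr2 (0.87) rose, Cd163 fell by 2.51 on the log2 scale, and Clec4f (0.20), Vsig4 (0.38), Timd4 (-0.74) and Marco (0.88) were not called. The summed Kupffer level was 119 to 507 CPM on the control and 179 to 819 on the high-fat diet.

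Bile duct markers bear on Spp1, Cd9 and Cd63, which bile duct cells also make. Of 5 tested cholangiocyte markers 4 were called higher, and the sum of the list of 6 was 4.78 to 14.8 CPM on the control and 5.49 to 174 on the high-fat diet. High-fat library 9 held the highest sum and also the highest Spp1, Cd9 and Cd63, with Krt19 at 48.1, Krt7 at 29.4 and Epcam at 58.2 CPM. The next highest sum was 39.5. That library was likewise the highest of its diet in Lpl (221 CPM), Itgax (28 CPM) and the monocyte marker Cx3cr1 (24.3 CPM). Without high-fat library 9 the log2 fold change of Spp1 was 2.38 and that of Cd9 1.07. Of 5 adipocyte markers, which bear on Lpl and Fabp4, 1 was tested and not called (Cfd, 0.51), and their sum was 0 to 19.8 CPM on the control and 0.373 to 19.2 on the high-fat diet. Adipoq had at most 5 counts and Lep 0 counts in any library. Adipoq and Plin1 were at 0 in high-fat libraries 3, 7 and 9, where Lpl was at 171, 217 and 221 CPM. The adipocyte sums of these libraries were 0.373, 11.4 and 0.803 CPM. The highest adipocyte sum of that diet was in library 8, with Lpl at 126 CPM. The part of adipocyte RNA in Lpl and Fabp4 was not tested. High-fat library 3, with Fabp4 at 79.8 CPM, also held the highest sums of neutrophil markers (166 CPM, against 14.4 in the next) and of monocyte markers (88.5, against 63.0).

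For the other lists, 6 of 8 stellate cell or fibroblast markers were called higher, led by Col1a1 (3.12, SE 0.42). Hepatocyte markers were lower for 3 of 5. Of 8 dendritic cell markers, which bear on Itgax, 3 were called higher, as were 4 of 5 tested neutrophil markers and 1 of 5 sinusoidal endothelial markers. The share of all tested genes called higher was 13.2%. By edgeR 0 of 6 T cell and 0 of 4 B cell markers were called, with 2 and 0 at an unadjusted p under 0.05, and DESeq2 called 0 of either.

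The diet comparison had used all 24 libraries together, so the Xist sets gave a question that the choice of genes had not used: did the diet effect differ between them? The size of the diet effect was larger in the Xist-low libraries for all 9 genes, Fabp5 in its own direction. Gpnmb had a log2 fold change of 4.73 (SE 0.68) in the Xist-high and 6.17 (SE 0.74) in the Xist-low libraries. Spp1 had 1.22 (SE 0.40) and 3.26 (SE 0.43), and Cd9 0.62 (SE 0.19) and 1.72 (SE 0.20). Trem2, Cd63 and Itgax had 2.55, 1.93 and 2.25 in the Xist-high against 4.30, 3.46 and 3.61 in the Xist-low libraries.

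**Figure D3:**
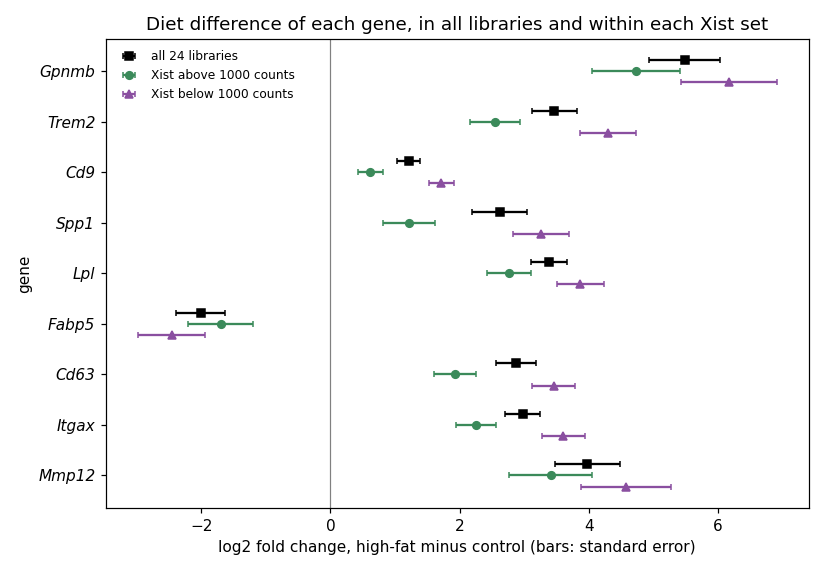
Log2 fold change by diet with its standard error for each gene, from all 24 libraries (squares), from the Xist-high libraries (circles) and from the Xist-low libraries (triangles). The Xist-low value is farther from 0 than the Xist-high value for each of the 9 genes. The widest gap is that of Spp1, with 3.26 against 1.22.

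The test of that difference, by edgeR's quasi-likelihood test on the interaction of diet and set, called 0 of the 9 genes, where 2.57% of all tested genes were called with a larger and 1.47% with a smaller effect in the Xist-low libraries. At an unadjusted p under 0.05 by edgeR there were 6 of the 9, and 4288 of the 17913 tested genes. At an adjusted p under 0.05 there were 5 of the 9, a cut for which all genes were not counted. Both DESeq2 and edgeR with library totals called 3 of the 9. By DESeq2 909 of all tested genes were called with a larger and 443 with a smaller effect in the Xist-low libraries. With library totals 1200 of all tested genes were called with a larger and 118 with a smaller effect in the Xist-low libraries, against 461 and 263 with TMM. Cd9 came nearest, with a difference of 1.10 on the log2 scale (SE 0.28, adjusted p = 0.0115), then Spp1 with 2.04 (SE 0.56, adjusted p = 0.0199) and Cd63 with 1.53 (SE 0.44, adjusted p = 0.0254). Over the alternatives on all libraries the adjusted p of Cd9 ran from 0.00187 to 0.02, that of Spp1 from 0.00718 to 0.0189 and that of Cd63 from 0.0067 to 0.0249. Control library 11 weighed on these values: without it 4 of 9 genes were called, and without control library 6 the sign turned for Gpnmb (-0.19) and Mmp12 (-0.55). Genes of the TREM2 pathway passed the same test, 7 of 11 with a larger effect in the Xist-low libraries, among them Tyrobp (1.77, SE 0.32, adjusted p = 0.000947) and Syk (1.52, SE 0.23, adjusted p = 0.0002). So did 7 of 10 pan-macrophage markers, such as Adgre1 (2.02, SE 0.37, adjusted p = 0.000947).

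On the high-fat diet alone the sets differed in 3 of the 9 genes, where 2.97% of all tested genes were called higher and 3.42% lower in the Xist-low libraries. With library totals 1177 genes were higher and 293 lower, against 532 and 613 with TMM, and 3 of the 9 were called under both. Without control libraries 6 and 11, which are not among the libraries compared but share the estimate of the spread, 6 of the 9 were called. In that fit 679 of 17611 tested genes were called higher and 614 lower in the Xist-low libraries. Spp1 was 2.18 higher on the log2 scale in the Xist-low libraries (SE 0.41, adjusted p = 0.000676), with 244 to 729 CPM against 26.3 to 163. Cd63 was 1.43 higher (SE 0.30, adjusted p = 0.002), with 52.4 to 99.7 CPM against 20.2 to 38.0. Both kept their call in each of the 24 fits that left out a single library. Cd9 was 0.75 higher (SE 0.19, adjusted p = 0.00941), but it kept its call in 9 of those 24 fits, and without high-fat library 9 its adjusted p was 0.0392. Trem2 (1.07, adjusted p = 0.0372) and Itgax (0.88, adjusted p = 0.0325) missed the threshold although their sets did not overlap. In all, 4 of the 9 genes had higher Xist-low libraries with no overlap, where 4.71% of all tested genes did. Gpnmb (0.91, adjusted p = 0.288) and Mmp12 (0.53, adjusted p = 0.59) had wide errors of 0.55 and 0.56, and high-fat library 3 was the lowest in both. Their spread was also shared with control libraries 6 and 11. Without those control libraries the differences were again 0.91 and 0.53, with adjusted p = 0.0143 and 0.267 by edgeR.

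Beside these differences stand those of the markers. On the high-fat diet the summed pan-macrophage level was 687 to 802 CPM in the Xist-high and 770 to 1549 in the Xist-low libraries, and the summed cholangiocyte level was 5.49 to 13.5 and 13.7 to 174. The summed hepatocyte level was 65087 to 88356 and 34679 to 45703. On the control diet the order of the pan-macrophage sums was the other way, with 295 to 668 CPM in the Xist-high and 170 to 313 in the Xist-low libraries. Tyrobp, Syk and Adgre1, called in the interaction, were 0.49, 0.39 and 0.53 higher on the log2 scale in the Xist-low libraries on the high-fat diet and were not called there (adjusted p = 0.134, 0.0921 and 0.167 by edgeR). Their part in the difference between the sets was not tested. On the control diet 0 of 9 genes differed between the sets by edgeR, also at an unadjusted p under 0.05.

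How the genes varied among the libraries of a diet was not used to choose them. On the high-fat diet Pearson's r of log2(CPM + 1) between members, with the means of the sets subtracted, ran from -0.88 (Fabp5 and Mmp12) to 0.90 (Trem2 and Mmp12) over the 36 pairs of genes, with a median of 0.11 (n = 12 libraries, which share their depth and scaling). Gpnmb, Trem2, Itgax and Mmp12, grouped after their values were seen, had 6 pairs between 0.42 and 0.90. Gpnmb and Cd9 had -0.83, and Cd9 and Lpl 0.82. Much of this came with libraries 3 and 9: without them the median over the pairs was 0.42, Gpnmb and Cd9 had 0.49, and Fabp5 was the only gene with a median pair below 0 (-0.19). On the control diet the median over the pairs was 0.79, and 0.25 without libraries 6 and 11. These are descriptions and carry no test.

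**Figure D4:**
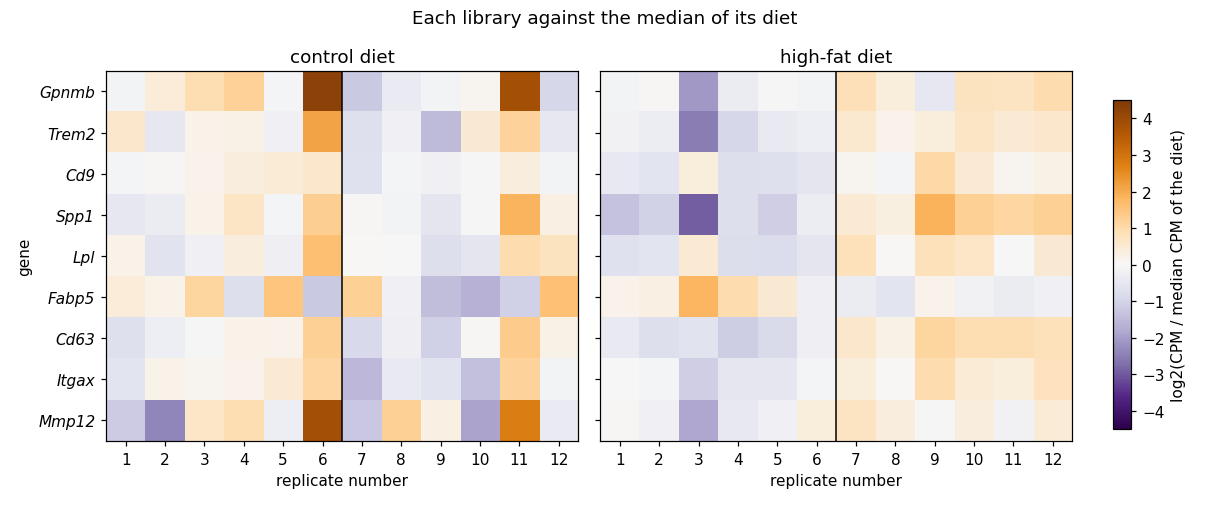
Log2 ratio of each library's CPM to the median of its diet, for the 9 genes (rows) and the 12 replicates (columns) of each diet. The vertical line parts the Xist-high libraries (1 to 6) from the Xist-low libraries (7 to 12). Control libraries 6 and 11 are high in all genes except Fabp5, and high-fat library 3 is low in Gpnmb, Trem2, Spp1, Itgax and Mmp12 and high in Cd9, Lpl and Fabp5.

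Col1a1, a chain of type I collagen, the collagen of scar tissue, was set against the 9 genes within each diet, and so was the mean of the pan-macrophage markers, giving 36 relations tested by permutation within the sets. On the high-fat diet r with Col1a1 ran from -0.57 to 0.73 over the 9 genes, and 4 of 9 (Trem2, Cd63, Itgax and Spp1) passed an adjusted p of 0.05. For Trem2 r was 0.73 (permutation p = 0.00179, adjusted p = 0.0161), and Spearman's rho was 0.71 (permutation p = 0.0278, adjusted p = 0.129). Leaving out libraries 3 and 8, the farthest in Col1a1, gave r = 0.59 for Trem2 (permutation p = 0.136). For Spp1 r was 0.68 (permutation p = 0.0235, adjusted p = 0.0446) with rho 0.50 (permutation p = 0.128, adjusted p = 0.235), and 0.24 without libraries 3 and 8. For Gpnmb r was 0.48 (permutation p = 0.163, adjusted p = 0.225) with rho 0.30 (permutation p = 0.389, adjusted p = 0.482), and -0.02 without them. Itgax, with r = 0.73 (permutation p = 0.0146, adjusted p = 0.0351), had 0.37 without them (permutation p = 0.279). The relations of Itgax and Spp1 thus rested on libraries 3 and 8, while Trem2 kept a positive r that no longer passed without them.

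Cd63 was the one gene whose relation to Col1a1 on the high-fat diet passed by both measures and had an unadjusted p under 0.05 without those libraries. Its r was 0.73 (permutation p = 0.0109, adjusted p = 0.0301) and its rho 0.83 (permutation p = 0.0036, adjusted p = 0.0432), and without libraries 3 and 8 r was 0.86 (permutation p = 0.00991). The call was lost when single libraries were left out: by permutation the adjusted p was 0.0566 without high-fat library 1 (r = 0.70), 0.0709 without library 6 (r = 0.65) and 0.129 without library 8 (r = 0.62). Since the adjustment runs over all 36 relations, it was also lost without control library 11, when 0 of 36 passed. Within the sets of 6, r was 0.63 in the Xist-high (exact p = 0.181) and 0.90 in the Xist-low libraries (exact p = 0.0181). For Trem2 the same values were 0.79 (exact p = 0.0139) and 0.72 (exact p = 0.1), for Spp1 0.65 (exact p = 0.157) and 0.75 (exact p = 0.0875), and for Gpnmb 0.66 (exact p = 0.135) and 0.10 (exact p = 0.831). With the pan-macrophage markers 0 of 9 relations passed by permutation on the high-fat diet (r from -0.14 to 0.38).

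**Figure D5:**
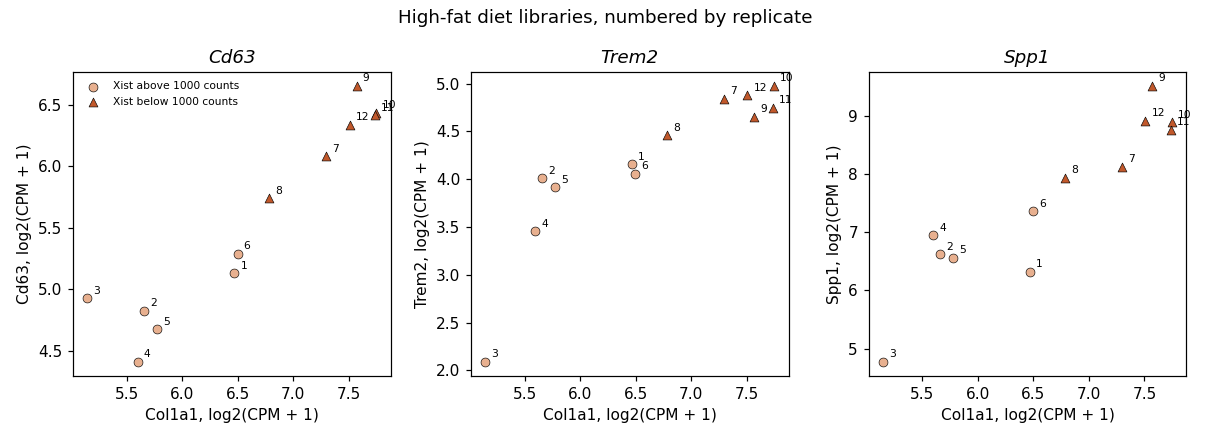
Level of Cd63, Trem2 and Spp1 against Col1a1, both as log2(CPM + 1), in the 12 high-fat libraries, numbered by replicate. Light circles are Xist-high and dark triangles Xist-low libraries. Library 3 is the lowest in Col1a1, Trem2 and Spp1. The r of 0.73, 0.73 and 0.68 in the text were computed after subtracting the mean of each set, which the plot does not do.

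On the control diet 8 of 9 relations with Col1a1 and 7 of 9 with the pan-macrophage markers passed an adjusted p of 0.05 by Pearson's r, with Fabp5 below 0 in both (-0.18 and -0.62). Spearman's rho passed for 1 gene with each partner. Gpnmb had r = 0.84 with Col1a1 (permutation p = 0.0173, adjusted p = 0.0389) and rho 0.43 (permutation p = 0.124, adjusted p = 0.235), and r = -0.08 without control libraries 6 and 11, the farthest in Col1a1. Trem2 went from 0.69 (permutation p = 0.0185, adjusted p = 0.0391) to -0.10 and Spp1 from 0.82 (permutation p = 0.0101, adjusted p = 0.0301) to 0.15. These relations rested on those 2 libraries, in which Col1a1 stood at 24.2 and 55.1 CPM against a control mean of 13.6. Only Mmp12 with Col1a1 (0.71, permutation p = 0.0342) and Cd9 with the pan-macrophage markers (0.66, permutation p = 0.0463) had an unadjusted p under 0.05 without them.

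The genes most like the 9 were sought by Pearson's r to the mean of the standardised members over the 12 high-fat libraries, among 13908 genes with a mean of at least 10 counts. Cd3e, a chain of the T cell receptor complex, came first (r = 0.94), at a low level of 0.723 CPM on the high-fat and 0.592 on the control diet. Prkab2 (0.93), Fam174b (0.92), Olfml3 (0.92), Ttc5 (0.91), Mrc2 (0.90), Selenon (0.90), Emp1 (0.89), Ehd2 (0.89) and Pik3r2 (0.89) followed. Of these 10, 6 also rose with the diet, among them Olfml3 (log2 fold change by diet 2.21), Mrc2, a collagen uptake receptor (2.22), and Emp1 (2.77), whereas Cd3e (0.28, adjusted p = 0.552) and Fam174b (0.22, adjusted p = 0.128) were not called. The likeness is a description over 12 libraries, and the highest of so many values is large by selection. Over the 12 libraries the 9 genes did not vary as one (median r of 0.11 over their pairs). Without libraries 3 and 9 that median was 0.42, so how far their mean stands for a shared pattern depends on those libraries. The search was not repeated without libraries 3 and 9.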

How the data were processed

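RNA-Seq of whole mouse liver gave 24 libraries, 12 per diet. A single table of unnormalized counts per Ensembl gene was deposited. The submitters' processing notes name bcl2fastq, STAR 2.7.3a and the mm10 build, and the counting program and annotation are not given in the sources used here. Symbols and coordinates came from GENCODE M21 (GRCm38), which held 51745 of the 56205 IDs. The other 4460 held 0.0723% of the counts. Libraries were assigned to diets by their labels. No 2 libraries of a diet agreed within sampling noise (chi-square per degree of freedom at least 10.1).

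The 9 genes, the lists and the tests were chosen with earlier results of these data known. Genes named are the 9, those of the lists, the 10 most like the 9, and Xist and Ddx3y, with relations in full for Gpnmb, Trem2 and Spp1. The Cd63 relation and the grouping of 4 genes by their correlations were singled out after their values were seen.

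Counts were fitted by the quasi-likelihood method of edgeR 4.0.16 (R 4.3.3) after TMM scaling, with diet as the only term. Genes needed 1 count or more in 12 or more libraries, and p-values were adjusted over 17913 genes by Benjamini-Hochberg. Each SE was obtained from the fold change and the F statistic. Set comparisons used a fit with the 4 groups of diet by set. The study's threshold was used (adjusted p at most 0.01, absolute log2 fold change over 0.5). The script was tested on simulated data. Relations used log2(CPM + 1), with 100000 two-sided permutations within sets, exact tests within a set of 6, and adjustment over 36 relations. TMM factors were 0.679 to 1.01 on the control and 0.995 to 1.34 on the high-fat diet. With library totals in place of TMM the median log2 fold change of all genes moved from -0.03 to 0.26. Alternatives were library totals, DESeq2's size factors, DESeq2 1.42.0, other filters, the replicate block, a set term, each set alone, a pseudocount of 0.1, and each library left out. Leaving out control libraries 6 and 11, and high-fat libraries 3 and 9 with them, was added after seeing the data.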

Additional observations from a re-analysis of the deposited data

Results flagged for a closer look

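Of 36 groups of 6 libraries (each of the 9 genes in each diet and Xist set), 13 had a library set apart from the other 5 by a gap that chance gives in about 1 group in 20. Control library 6 had 5 of them, all as the highest of its set: Gpnmb 7.34, Trem2 5.58, Lpl 32.5, Cd63 15.2 and Mmp12 11 CPM. Control library 11 had 5, also as the highest: Gpnmb 5.49, Spp1 117, Cd63 16.3, Itgax 4.19 and Mmp12 5.38 CPM. High-fat library 3 had 3, as the lowest for Gpnmb (13.3 CPM) and the highest for Cd9 (66.7 CPM) and Lpl (171 CPM).

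The diet effect differed between the Xist sets, by the test of the interaction, for 29 of 174 tested genes of the lists, the 9 included. None of the 29 was among the 9. Of all 17913 tested genes, 2.57% were called with a larger and 1.47% with a smaller effect in the Xist-low libraries. All 29 had the larger log2 fold change in the Xist-low libraries. Among phagocyte and lysosome genes the differences were 2.21 for Lgals3, 1.6 for Cd68, 1.79 for Ctss and 1.0 for Lgmn. In TREM2 signalling they were 1.77 for Tyrobp, 1.52 for Syk, 1.45 for Plcg2, 1.71 for Vav1, 1.99 for Lat2, 1.25 for Inpp5d and 1.88 for Spi1. For receptors, integrins, tetraspanins and a protease they were 1.52 for Cd44, 0.90 for Itga9, 1.37 for Itgal, 1.71 for Itgb2, 1.33 for Cd37, 1.82 for Cd53, 1.41 for Tspan3 and 0.78 for Mmp14. The macrophage markers Adgre1, Csf1r, Fcgr1, C1qa, C1qb and C1qc had 2.02, 1.52, 2.24, 1.51, 1.63 and 1.45, and the Kupffer cell marker Cd5l had 1.42. The remaining 3 were the neutrophil marker Csf3r (1.33), the T cell marker Cd8a (3.62) and the cholangiocyte marker Epcam (3.06).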

How the results depend on the processing

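The diet direction of the 9 genes held under each alternative, and with the replicate block 8 were called higher and 1 lower, as without it. Within the Xist-high libraries alone 6 were called higher and 0 lower, where 525 of 18071 tested genes were called higher and 162 lower. Of 98 other genes in the pathway and family lists (95 tested) 42 were called higher and 5 lower. With the Xist-high libraries alone these were 18 and 2, with library totals 55 and 2, and with the replicate block 42 and 5. Leaving out 1 library gave 8 and 1 for the 9 genes, and 38 to 44 higher and 5 to 6 lower for the others. For the difference of the diet effect between sets, 0 of the 9 were called, 0 with the replicate block, 3 with library totals and 3 with DESeq2. There were 4 without control libraries 6 and 11, 6 when high-fat libraries 3 and 9 were left out too, and 0 to 4 without 1 library (4 without control library 11). Without control libraries 6 and 11, 610 of 17611 tested genes were called with a larger and 289 with a smaller effect in the Xist-low libraries. With high-fat libraries 3 and 9 left out too, these were 632 and 340 of 17205. Without control library 6 that difference reversed for Gpnmb (-0.19) and Mmp12 (-0.55), and without control library 11 it was 3.57 and 2.17. For the sets on the high-fat diet, 3 were called, 6 without control libraries 6 and 11, 6 without high-fat libraries 3 and 9 as well, and 2 to 4 without 1 library. Without those 4 libraries 470 of 17205 tested genes were called higher and 488 lower in the Xist-low libraries. Of 36 relations 19 passed, and 0 to 20 without 1 library, with 3 left without control library 6 and 0 without control library 11. The cause was not tested. The labels do not say that a number marks a shared mouse or batch, and the numbers were not taken as pairs. The deviations of same-numbered libraries from their diet mean correlated at -0.093 for number 9. The other 11 numbers had 0.155 to 0.541. The means of the Xist sets were not removed and each number lies in the same set in both diets, so these values cannot decide on pairing. Of the 12 high-fat libraries 2, and of the 12 control libraries 4, correlated best with their own number. The set difference within a diet cannot carry the replicate block, since each number lies in 1 set. Gpnmb and Mmp12 had as few as 3 and 2 counts in a control library, so their lowest control levels carry wide counting error.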
